A study of Mus musculus with 9 samples.

Results

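This account covers 33 genes of cholesterol and fatty acid synthesis in mouse embryonic stem (ES) cells. They were taken by gene symbol from the deposited tables, which hold 24411 genes. The 33 genes were divided by role into a sterol branch of 18 enzymes, 6 regulators of sterol sensing and sterol transport, and a fatty acid branch of 9 enzymes. All 33 passed the filter on low counts that left 14300 genes for testing.

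The cells were of the EB5 line, which comes from the male 129Ola line E14tg2a and carries the allele Oct3/4IRES-BSD-pA/+, so that every group shares that allele. The 3 groups were the unedited Parental cells, Zfp352-KO cells and Zfp352/Zfp353-DKO cells, in which CRISPR-Cas9 had removed the named zinc finger genes, with 3 libraries each. All groups grew on gelatin in a medium with fetal calf serum (FCS) and leukemia inhibitory factor. The labels do not say how many clones stand behind a genotype, or whether the 3 libraries of a group came from separate cultures, so p-values measure the spread among these libraries alone and a clone cannot be told apart from its genotype. The question of the design is which transcripts differ in abundance once Zfp352, or Zfp352 together with Zfp353, has been deleted.

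Cells make cholesterol from acetyl-CoA through mevalonate, isoprenoid diphosphates, squalene and lanosterol. The transcription factor SREBP2, encoded by Srebf2, drives the genes of this route. It waits in the endoplasmic reticulum as a precursor bound to SCAP, and when membrane sterol is low SCAP escorts it to the Golgi, where proteases release the active part. INSIG proteins hold SCAP back when sterols are plentiful. SREBP1, encoded by Srebf1, mainly drives fatty acid synthesis, in which citrate-derived acetyl-CoA is carboxylated, built into palmitate, elongated and desaturated. Dividing stem cells need both products for new membranes, and serum supplies part of the cholesterol as lipoprotein.

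The stretches of DNA just before the RefSeq start sites are shown for 4 genes, to set the letters beside counts of known promoter motifs. RefSeq promoter entries of GRCm38.p6 were found for 26 of the 33 genes, all except Sqle, Fdft1, Fdps, Stard4, Scd1, Scd2 and Fads1, and the 250 bases before each start were searched on both strands. The capitals mark every match to 4 motifs or their reverse complements. The core of a sterol regulatory element was searched as TCACNCCAC. The CCAAT box was searched by the letters of its name, the GC box as GGGCGG, and the E box as CACGTG. Hmgcs1 (chr13:119690101-119690350, plus strand) and Lss (chr10:76531355-76531604, plus strand) stand for the sterol branch, Insig1 (chr5:28071162-28071411, plus strand) for the regulators and Fasn (chr11:120824548-120824797, minus strand) for the fatty acid branch. The 30 bases after the RefSeq start lay whole in a GENCODE transcript of the gene for 28 of the 34 entries of these genes, but not for Hmgcs1 and Lss, whose nearest GENCODE transcript starts were 28 and 2 bases away.
Hmgcs1: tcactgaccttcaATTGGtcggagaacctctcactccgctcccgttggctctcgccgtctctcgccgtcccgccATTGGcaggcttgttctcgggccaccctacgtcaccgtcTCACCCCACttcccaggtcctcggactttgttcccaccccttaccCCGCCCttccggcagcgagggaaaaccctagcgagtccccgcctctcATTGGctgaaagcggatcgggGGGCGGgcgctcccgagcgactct
Lss: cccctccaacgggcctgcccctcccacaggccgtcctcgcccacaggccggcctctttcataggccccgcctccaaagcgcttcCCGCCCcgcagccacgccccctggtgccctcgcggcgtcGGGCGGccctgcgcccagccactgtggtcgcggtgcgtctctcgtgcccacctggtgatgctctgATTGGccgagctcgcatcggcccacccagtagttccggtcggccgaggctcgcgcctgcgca
Insig1: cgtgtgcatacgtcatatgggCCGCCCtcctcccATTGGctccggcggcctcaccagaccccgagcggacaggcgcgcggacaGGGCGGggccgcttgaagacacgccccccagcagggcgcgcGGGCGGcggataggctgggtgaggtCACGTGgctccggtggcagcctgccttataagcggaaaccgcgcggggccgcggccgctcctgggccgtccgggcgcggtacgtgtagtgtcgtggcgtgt
Fasn: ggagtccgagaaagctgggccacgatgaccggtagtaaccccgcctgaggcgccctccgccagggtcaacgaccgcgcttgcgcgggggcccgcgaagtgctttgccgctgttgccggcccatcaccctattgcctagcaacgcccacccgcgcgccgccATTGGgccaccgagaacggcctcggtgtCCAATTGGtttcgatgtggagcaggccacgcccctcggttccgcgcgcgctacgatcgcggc

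CCAAT, or its complement ATTGG, was present in 14 of 15 sterol branch genes with an entry, in 4 of 5 regulators and in 2 of 6 fatty acid genes. The share was 33.8% of the 32851 promoters in the table and 40.8% of the 10758 tested genes with an entry. Acat2 was the sterol branch gene without it, and Fasn and Acss2 were the fatty acid genes with it. In the Fasn stretch, matches on opposite strands overlapped (CCAATTGG). The GC box was found in 22 of the 26 genes, against 32.7% of all promoters and 63.7% of the tested genes. The TCACNCCAC core was found in 1 of the 26, Hmgcs1, where its first base lies 137 bases before the start, against 1.05% of all promoters and 1.32% of tested genes. CACGTG was found in 5 of the 26 (Dhcr7, Hsd17b7, Sc5d, Insig1 and Scap), against 6.02% of all promoters and 9.87% of tested genes. These matches describe letters only, and a longer or less strict pattern was not searched.

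The libraries held 16599004 to 22044820 expected counts each. Zfp352 had 47, 52 and 41 rounded counts in Parental libraries, 3, 8 and 10 for Zfp352-KO and 1, 1 and 3 for Zfp352/Zfp353-DKO, so each library matched the Zfp352 state of its label. Zfp353 was not analysed here, so that deletion was not checked. The summed TPM (a level normalized for transcript length and depth) of 8 ES cell markers, Pou5f1, Nanog and Sox2 among them, ran from 6620 to 6750 for Parental, 6540 to 6700 for Zfp352-KO and 6650 to 6740 in Zfp352/Zfp353-DKO libraries. The hepatocyte markers Alb, Afp, Ttr and Apoa1 and the adipocyte markers Adipoq, Plin1 and Cidec were each under 1 TPM in all 9 libraries. The adipocyte sum was set by Lpl and ran from 5.71 to 6.19 TPM for Parental, 7.08 to 7.79 for Zfp352-KO and 7.14 to 10.2 for Zfp352/Zfp353-DKO. Sums of markers of some other cell types moved with genotype. The summed TPM of 10 fibroblast-type markers was 194 to 198 for Parental, 120 to 137 for Zfp352-KO and 98.8 to 107 in Zfp352/Zfp353-DKO libraries, with Dcn, Lum and Postn under 1 TPM throughout. The sum of 8 trophectoderm markers was 263 to 305, 182 to 194 and 156 to 170 in the same order, and that of 7 primitive endoderm markers was 5.06 to 6.96, 4.95 to 6.95 and 5.13 to 7.64. Of 4 steroidogenic markers, Cyp11a1, Cyp17a1 and Hsd3b1 were under 1 TPM throughout, and the sum, mostly Star, was 8.1 to 9.08, 9.5 to 10.5 and 11.5 to 12.4. Not every marker moved with its sum. Of the 7 tested trophectoderm markers, 4 were lower in each comparison with Parental at an edgeR adjusted p under 0.05. The share of all tested genes lower at that level was 3.64% and 4.82%. In the Zfp352-KO and Zfp352/Zfp353-DKO comparisons, 2 and 1 of the 7 had log2 fold changes above 0. The part of these markers in the results below was not tested, and in bulk RNA fewer cells of a type and less RNA per cell cannot be told apart.

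The 33 genes were well expressed for the most part. In Parental cells 27 of them had a mean TPM above that of the median tested gene, and 1 gene, Hsd17b7, ranked as low as the 25.0th percentile. Counts per library ran from 50 to 20650. The highest levels belonged to the start of the fatty acid branch and to a middle step of the sterol branch. Acly, the ATP citrate lyase that makes cytosolic acetyl-CoA from citrate, had 230, 215 and 238 TPM for Parental, 240, 239 and 230 for Zfp352-KO and 220, 216 and 243 in Zfp352/Zfp353-DKO cells. Fasn, the fatty acid synthase, had 154, 145 and 171 TPM, then 179, 176 and 158, then 155, 157 and 173. For both genes the ranges of the 3 genotypes overlapped.

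The 3 lowest levels were in the later, sterol ring-modifying steps. Hsd17b7, a ketosteroid reductase, had 3.08, 2.7 and 3.04 TPM for Parental, 3.30, 3.17 and 3.11 for Zfp352-KO and 2.6, 3.11 and 3.46 in Zfp352/Zfp353-DKO cells. Tm7sf2, a sterol reductase, had 4.6, 4.91 and 7.41 TPM, then 4.07, 5.28 and 5.67, then 4.62, 5.12 and 5.28. Sc5d, a sterol desaturase, had 10.6, 8.84 and 8.58 TPM, then 8.20, 9.07 and 8.61, then 7.44, 10.1 and 8.81. The third Parental library was high for Tm7sf2 and the first was high for Sc5d, and no genotype stood apart. Tm7sf2 overlaps Vps51, so its reads could be shared with that gene.

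**Figure D1:**
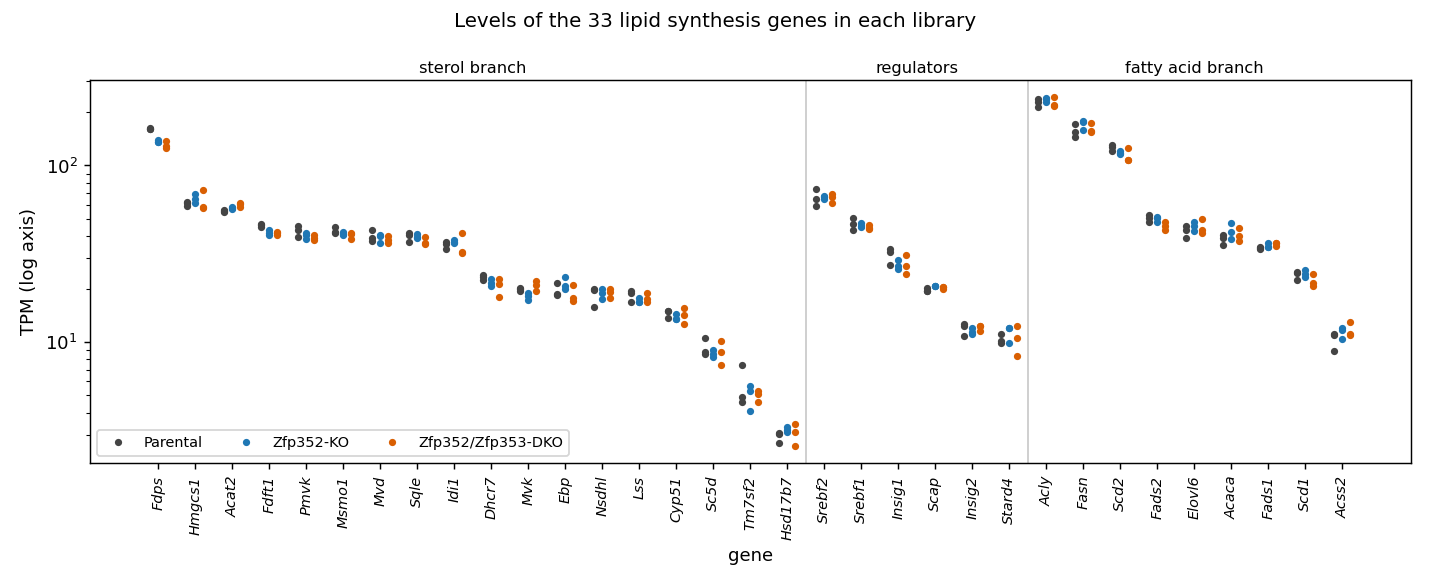
TPM (log axis) of each of the 33 genes in the 9 libraries, coloured by genotype and ordered by branch and level. Levels ran from about 3 TPM for Hsd17b7 to above 200 TPM for Acly, and the 3 genotypes overlapped for most genes, with Fdps set apart in the Parental cells.

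In the sterol branch, 2 of 18 genes fell in Zfp352-KO against Parental cells and 0 rose, where 7.06% of all tested genes were called, 3.64% lower. Fdps, the farnesyl diphosphate synthase that builds the last isoprenoid shared by sterols and the non-sterol branches, and Fdft1, the squalene synthase that commits farnesyl diphosphate to sterols, were the 2 genes, and they catalyse consecutive steps. They were also the 2 sterol genes that fell in Zfp352/Zfp353-DKO cells, where 8.47% of all tested genes were called, 4.82% lower. Here and below a gene counts as called when its Benjamini-Hochberg adjusted p was under 0.05 in edgeR's quasi-likelihood test on rounded expected counts, adjusted over all 14300 genes.

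Fdps (chromosome 3, 89093588 to 89101967, GRCm38) had 161, 160 and 162 TPM in Parental libraries, 135, 135 and 140 for Zfp352-KO and 129, 126 and 137 for Zfp352/Zfp353-DKO. Each of the 6 edited libraries was below every Parental library, and the edited genotypes overlapped each other. The log2 fold change was -0.28 ± 0.048 (SE) in Zfp352-KO against Parental (0.823-fold, edgeR adjusted p = 0.00185). It was -0.34 ± 0.048 in Zfp352/Zfp353-DKO against Parental (0.791-fold, edgeR adjusted p = 0.000166). Between the edited genotypes the log2 difference was -0.058 ± 0.049 (edgeR adjusted p = 0.929). Fdps kept its call in both comparisons with Parental under all 19 alternatives tried, with log2 values from -0.30 to -0.19 and from -0.35 to -0.27.

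Fdft1 (chromosome 14, 63145150 to 63181687) had 46.2, 46.9 and 44.6 TPM for Parental, 41.5, 40.6 and 42.9 for Zfp352-KO and 41.5, 40.2 and 42.3 in Zfp352/Zfp353-DKO cells. The Parental range lay above both others, which nearly coincided. The log2 fold changes were -0.19 ± 0.053 (edgeR adjusted p = 0.0383) and -0.19 ± 0.053 (edgeR adjusted p = 0.0281) against Parental. The Zfp352-KO call was lost without Parental library 1, Parental library 2, Zfp352-KO library 1, Zfp352-KO library 2 or Zfp352/Zfp353-DKO library 2, at edgeR adjusted p = 0.149, 0.171, 0.158, 0.156 and 0.0653. The Zfp352/Zfp353-DKO call was lost without Parental library 1, Parental library 2, Zfp352/Zfp353-DKO library 2 or Zfp352/Zfp353-DKO library 3, at edgeR adjusted p = 0.119, 0.144, 0.113 and 0.0664. Both calls were also lost with the replicate number as a block (edgeR adjusted p = 0.0753 and 0.059) and with limma on log2(TPM + 1) (adjusted p = 0.122 and 0.0929). Fdft1 overlaps Ctsb in the annotation, and a strand setting for the counting is not given in the sources used here.

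**Figure D2:**
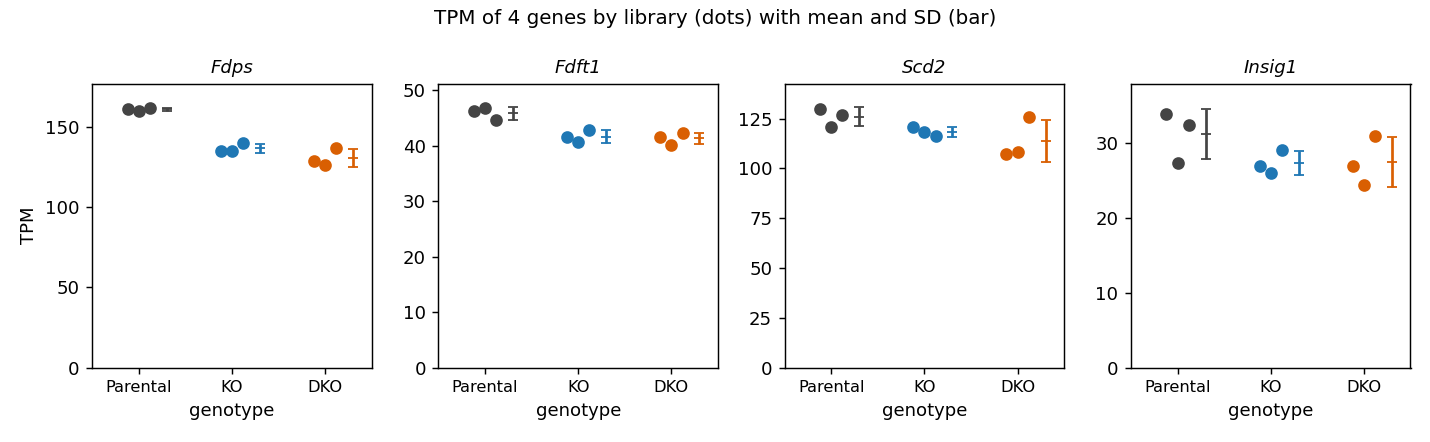
TPM (axis from 0) of Fdps, Fdft1, Scd2 and Insig1 in each library (dots), with the mean and SD of the 3 libraries of a genotype (bars, KO for Zfp352-KO and DKO for Zfp352/Zfp353-DKO). The Parental libraries of Fdps, at 160 to 162 TPM, lie above all 6 edited libraries, at 126 to 140 TPM, while the Insig1 groups overlap.

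The other 16 sterol branch genes did not pass the test in either comparison with Parental. At the head of the route, Acat2, the cytosolic thiolase, had a mean of 55.2 ± 0.96 TPM (SD, n = 3) for Parental, 57.5 ± 0.73 for Zfp352-KO and 59.8 ± 1.4 for Zfp352/Zfp353-DKO. It was the 1 gene of the 33 whose CPM (count scaled to library depth) in Zfp352/Zfp353-DKO libraries all exceeded those of Parental libraries (log2 fold change 0.075 ± 0.050, edgeR adjusted p = 0.383). Hmgcs1, the HMG-CoA synthase, had means of 61.0 ± 1.4, 65.2 ± 3.9 and 62.9 ± 8.5 TPM. Library 3 of Zfp352/Zfp353-DKO, at 72.6 TPM, lay above the other 2 at 57.3 and 58.6 TPM.

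The kinases and the decarboxylase that turn mevalonate into isopentenyl diphosphate differed in pattern. Mvk, the mevalonate kinase, had 19.5, 20.0 and 20.2 TPM for Parental, 18.3, 19.1 and 17.4 for Zfp352-KO and 22.1, 21.2 and 19.6 in Zfp352/Zfp353-DKO cells. The Zfp352-KO libraries were thus below all others, but the difference from Parental had an edgeR adjusted p of 0.184 (log2 fold change -0.17 ± 0.079). Pmvk, the phosphomevalonate kinase, had log2 fold changes of -0.15 ± 0.072 for Zfp352-KO and -0.18 ± 0.072 for Zfp352/Zfp353-DKO (edgeR adjusted p = 0.225 and 0.136). Mvd, the decarboxylase, had -0.071 ± 0.074 and -0.11 ± 0.074. Idi1, the isopentenyl diphosphate isomerase just ahead of Fdps, had 0.017 ± 0.071 and -0.060 ± 0.071 (edgeR adjusted p = 0.915 and 0.65).

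After squalene, none of the genes passed the test. Sqle, the squalene epoxidase, had 41.3, 37.1 and 40.4 TPM for Parental, 40.8, 39.2 and 38.9 for Zfp352-KO and 35.9, 36.4 and 39.2 in Zfp352/Zfp353-DKO cells, with log2 fold changes of -0.044 ± 0.051 and -0.13 ± 0.052 (edgeR adjusted p = 0.654 and 0.12). Lss, the lanosterol synthase, had -0.15 ± 0.054 and -0.092 ± 0.054 (edgeR adjusted p = 0.105 and 0.303). Dhcr7, the reductase of the last step to cholesterol, had 24.1, 22.6 and 23.4 TPM for Parental, 21.7, 20.7 and 22.8 for Zfp352-KO and 21.4, 18.1 and 22.9 in Zfp352/Zfp353-DKO cells. Its log2 fold changes were -0.15 ± 0.073 and -0.21 ± 0.073 (edgeR adjusted p = 0.216 and 0.0821).

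Among the genes between lanosterol and the last step, log2 fold changes in Zfp352-KO cells were -0.13 for Cyp51, the lanosterol demethylase, -0.10 for Msmo1, the methylsterol oxidase, -0.016 for Nsdhl, a sterol dehydrogenase, 0.079 for Ebp, a sterol isomerase, 0.072 for Hsd17b7, -0.16 for Sc5d and -0.19 for Tm7sf2. In Zfp352/Zfp353-DKO cells the same 7 genes had -0.089, -0.12, -0.0021, -0.10, 0.0076, -0.13 and -0.20. Their edgeR adjusted p-values ran from 0.206, for Msmo1, to 0.992, for Nsdhl, in the Zfp352/Zfp353-DKO comparison. Standard errors were widest for Tm7sf2 (0.18), the second lowest in level.

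Over the whole sterol branch, 13 of 18 log2 fold changes were below 0 for Zfp352-KO and 15 of 18 for Zfp352/Zfp353-DKO, with medians of -0.12 and -0.11. Over all tested genes, 52.2% and 50.0% were below 0, with medians of -0.0089 and -0.00035. The sterol median stayed below 0 under all 19 alternatives, from -0.13 to -0.047 and from -0.14 to -0.065. Without Parental library 1 it was -0.061 in the Zfp352-KO and -0.065 in the Zfp352/Zfp353-DKO comparison, and without Zfp352-KO library 1 it was -0.075 in the Zfp352-KO comparison. The summed TPM of the branch was 656 ± 13.9 (SD, n = 3) for Parental, 626 ± 3.9 for Zfp352-KO and 613 ± 27.2 for Zfp352/Zfp353-DKO. Fdps alone contributed 161 ± 1.1, 137 ± 2.6 and 131 ± 5.8 TPM of these sums. The 2 comparisons share the Parental libraries, so their values are given side by side and are not independent.

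The regulators, which set the activity of the sterol route, had 0 of 6 genes called in edgeR in either comparison with Parental, and 0 in DESeq2 and limma. Of all tested genes, edgeR called 7.06% and 8.47%. At an unadjusted p under 0.05, 1 (Insig1) and 2 (Insig1 and Srebf1) were lower, beside 11.9% and 12.4% of all tested genes. A list of 6 is too small to set such counts apart from the background. Srebf2 had 64.8, 58.8 and 73.8 TPM for Parental, 67.6, 64.5 and 66.7 for Zfp352-KO and 66.3, 61.0 and 69.3 in Zfp352/Zfp353-DKO cells. Srebf1 had 46.8, 43.3 and 50.5 TPM, then 45.6, 47.0 and 44.6, then 44.4, 43.6 and 46.0. The Parental libraries spanned the edited ones for Srebf2, and the ranges overlapped for Srebf1 on the TPM scale. On the CPM scale 1 of the 6 regulators, Srebf1, lay wholly below Parental in Zfp352/Zfp353-DKO cells, and 0 did in Zfp352-KO cells. Of all tested genes, 15.0% and 14.4% did so. Srebf1 overlaps Rai1 in the annotation.

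The level of Srebf2 was 1.40 ± 0.053 (SD, n = 3) times that of Srebf1 in Parental cells, 1.45 ± 0.066 for Zfp352-KO and 1.47 ± 0.059 for Zfp352/Zfp353-DKO, all on the TPM scale. These ratios overlapped between genotypes. The log2 fold changes of Srebf2 were -0.034 ± 0.058 and -0.045 ± 0.058, and those of Srebf1 were -0.079 ± 0.049 and -0.11 ± 0.049 (edgeR adjusted p = 0.354 and 0.186). Scap, the escort protein, had 19.9 ± 0.44, 20.9 ± 0.08 and 20.4 ± 0.34 TPM. Stard4, a soluble sterol carrier, had 10.4 ± 0.63, 11.3 ± 1.3 and 10.4 ± 2.0 TPM.

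Insig1, the sterol-responsive retention factor and itself a target of SREBP2, had 33.9, 27.4 and 32.4 TPM for Parental, 26.9, 26.0 and 29.1 for Zfp352-KO and 27.0, 24.4 and 31.0 in Zfp352/Zfp353-DKO cells. The second Parental library fell among the edited ones. Its log2 fold changes were -0.23 ± 0.080 and -0.23 ± 0.080 (edgeR adjusted p = 0.0785 and 0.0838), close to the threshold. It was called in 4 of the 19 alternatives in each comparison. In the Zfp352-KO comparison it was called without Zfp352-KO library 3 (-0.29, edgeR adjusted p = 0.04) or Zfp352/Zfp353-DKO library 3 (-0.23, edgeR adjusted p = 0.0421). In the Zfp352/Zfp353-DKO comparison it was called without Parental library 2 (-0.29, edgeR adjusted p = 0.0493) or Zfp352/Zfp353-DKO library 3 (-0.29, edgeR adjusted p = 0.0399).

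Insig2, the paralog that is less tied to sterol supply, had 12.4, 12.7 and 10.8 TPM for Parental, 11.2, 12.1 and 11.5 for Zfp352-KO and 12.4, 11.6 and 12.4 in Zfp352/Zfp353-DKO cells. Its log2 fold changes were -0.092 ± 0.087 and -0.015 ± 0.087. The ratio of Insig1 to Insig2 on the TPM scale was 2.63 ± 0.44, 2.36 ± 0.20 and 2.25 ± 0.21 (SD, n = 3). These ratios overlapped between genotypes.

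In the fatty acid branch 0 of 9 genes were called in Zfp352-KO against Parental by edgeR, DESeq2 or limma. Of all tested genes, edgeR called 7.06%. At an unadjusted p under 0.05, 1 (Scd2) was lower, beside 11.9% of all tested genes lower at that level. In Zfp352/Zfp353-DKO against Parental, 1 of 9 fell, beside 8.47% of all tested genes called, 4.82% lower. A list of 9 is too small to set such counts apart from the background. The gene was Scd2, a stearoyl-CoA desaturase that makes monounsaturated fatty acids. The median log2 fold change of the branch was 0.0041 for Zfp352-KO and 0.0061 for Zfp352/Zfp353-DKO, with 4 of 9 genes below 0 in each. The sign of these medians was not stable. It was below 0 in 3 of 19 alternatives in the Zfp352-KO and in 5 of 19 in the Zfp352/Zfp353-DKO comparison, the latter including those without Parental library 1, Parental library 2 or Zfp352/Zfp353-DKO library 3. The summed TPM of the branch was 711 ± 37.2 (SD, n = 3), 734 ± 26.5 and 703 ± 47.4 for the Parental, then the Zfp352-KO and then the Zfp352/Zfp353-DKO cells.

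Scd2 (chromosome 19, 44293676 to 44306864) had 130, 121 and 127 TPM for Parental, 121, 118 and 116 for Zfp352-KO and 107, 108 and 126 in Zfp352/Zfp353-DKO cells. On the TPM scale the third Zfp352/Zfp353-DKO library lay within the Parental range. On the CPM scale both edited groups lay below Parental and overlapped each other. The log2 fold change was -0.14 ± 0.049 in Zfp352-KO (edgeR adjusted p = 0.0876). It was -0.19 ± 0.049 for Zfp352/Zfp353-DKO (edgeR adjusted p = 0.0198). The second value lost its call without Parental library 1 (-0.17, edgeR adjusted p = 0.138), Parental library 2 (-0.20, 0.0524), Zfp352/Zfp353-DKO library 1 (-0.16, 0.0782) or Zfp352/Zfp353-DKO library 2 (-0.16, 0.121). It also lost it with limma on log2(TPM + 1) (-0.15, adjusted p = 0.15) and on log2(TPM + 0.1) (-0.15, adjusted p = 0.151). The Zfp352-KO value gained a call without Zfp352/Zfp353-DKO library 3 (-0.14, edgeR adjusted p = 0.0346) and with a trend by transcript length removed (-0.22, edgeR adjusted p = 0.0013).

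Scd1, its neighbour and close paralog (chromosome 19, 44394450 to 44407709), was expressed at a lower level, with 24.8, 22.4 and 24.9 TPM for Parental, 25.5, 23.4 and 24.3 for Zfp352-KO and 20.8, 21.6 and 24.4 in Zfp352/Zfp353-DKO cells. The ratio of Scd2 to Scd1 on the TPM scale was 5.26 ± 0.16 (SD, n = 3), 4.86 ± 0.15 and 5.11 ± 0.074. Scd1 had log2 fold changes of -0.026 ± 0.056 and -0.15 ± 0.057 (edgeR adjusted p = 0.823 and 0.106). Reads shared by such similar genes are divided by the estimate, so the split between Scd1 and Scd2 is uncertain.

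The steps from acetyl-CoA to palmitate had values close to Parental. Acly had log2 fold changes of 0.0041 ± 0.044 and -0.052 ± 0.044, and Fasn had 0.083 ± 0.050 and 0.0061 ± 0.050. Acaca, the acetyl-CoA carboxylase, had 0.11 ± 0.059 and 0.043 ± 0.059 (edgeR adjusted p = 0.274 and 0.708), and it overlaps Tada2a in the annotation. Acss2, which makes acetyl-CoA from acetate, had 0.098 ± 0.091 and 0.14 ± 0.090. Elovl6, which elongates palmitate, had 0.041 ± 0.055 and 0.026 ± 0.055. The desaturases of polyunsaturated fatty acids differed from each other in level and in value. Fads1 had 34.6, 33.7 and 34.1 TPM in Parental and log2 fold changes of -0.0017 ± 0.050 and 0.029 ± 0.050. Fads2 had 52.2, 48.1 and 50.4 TPM for Parental, 48.0, 51.1 and 50.2 for Zfp352-KO and 45.6, 43.0 and 48.0 in Zfp352/Zfp353-DKO cells, with log2 fold changes of -0.058 ± 0.060 and -0.18 ± 0.060 (edgeR adjusted p = 0.605 and 0.0657).

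**Figure D3:**
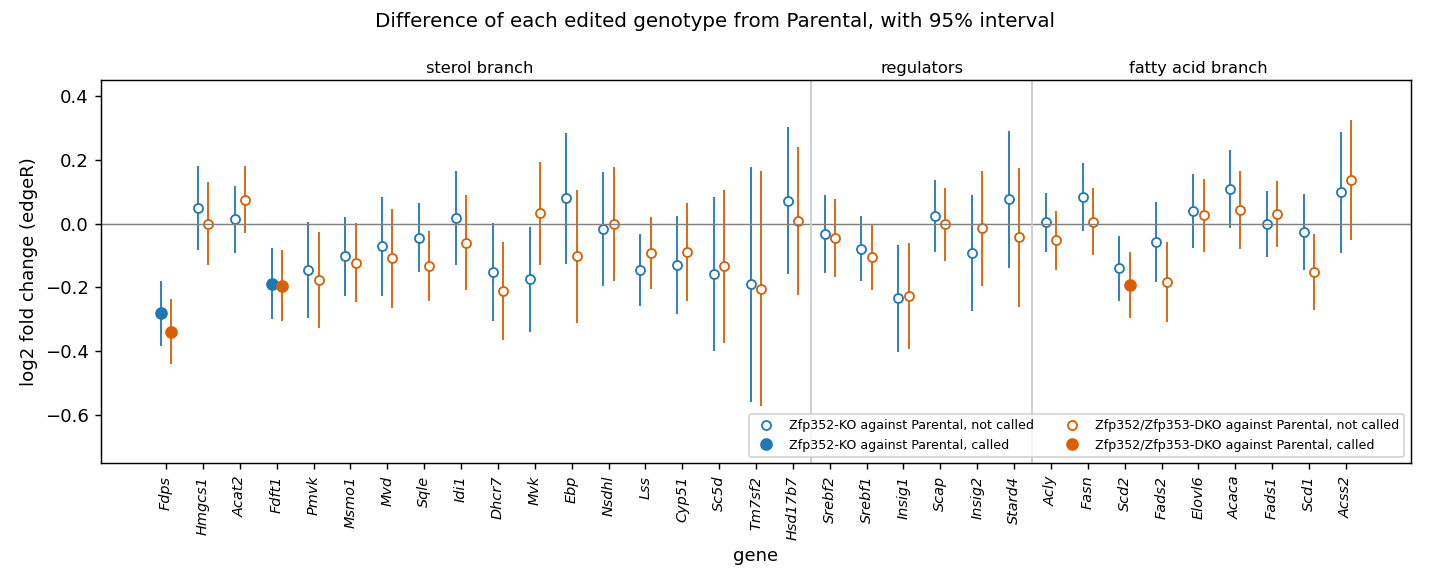
Log2 fold change of each gene in Zfp352-KO (blue) and Zfp352/Zfp353-DKO (orange) cells against Parental, from edgeR on counts, with 95% intervals; filled points passed the adjusted p threshold of 0.05. Fdps has the lowest values of the 33 (-0.28 and -0.34), and Tm7sf2, a gene of low level, has the widest intervals.

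Counted over all 33 genes, 2 (6.06%) were called in Zfp352-KO against Parental, both lower, beside 7.06% of all tested genes in either direction, 3.64% lower and 3.43% higher. In Zfp352/Zfp353-DKO against Parental, 3 (9.09%) were called, all lower, beside 8.47% of all tested genes in either direction, 4.82% lower and 3.65% higher. The shares called in either direction are near the background. In both comparisons 0 of 33 were called higher by edgeR, DESeq2 or limma, and 0 were higher at an unadjusted p under 0.05, beside 11.9% and 12.1% of all tested genes, while 6 and 10 were lower at that level, beside 11.9% and 12.4% of all tested genes lower and 23.7% and 24.5% in either direction. The log2 fold change was below 0 for 21 and 25 of the 33 genes, with medians of -0.044 and -0.089. The Zfp352-KO median was 0.0035 with limma on log2(TPM + 1). In that setting the median over all tested genes was 0.031, beside -0.0089 in the main fit. Without Parental library 1 the Zfp352-KO median of the 33 genes was -0.012, and without Parental library 3 it was -0.029. The Zfp352/Zfp353-DKO median was -0.039 without Zfp352/Zfp353-DKO library 2 and -0.053 without Parental library 1. Counted by CPM ranges that did not overlap, 7 genes were lower and 0 higher in Zfp352-KO cells, beside 14.4% lower and 13.0% higher of all tested genes. In Zfp352/Zfp353-DKO cells 8 were lower and 1 higher, beside 15.0% and 13.1%.

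The 95% intervals, taken gene by gene, reflect the spread among libraries in the main fit. They do not cover a change of setting, such as removal of the length trend described below. For 32 of the 33 genes the interval against Parental lay within 0.5 log2 units of 0 in each comparison. Tm7sf2 was the exception, with lower bounds of -0.56 and -0.57. The highest upper bounds were 0.30, for Hsd17b7 in Zfp352-KO cells, and 0.33, for Acss2 in Zfp352/Zfp353-DKO cells.

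Between the edited genotypes, where the added deletion is that of Zfp353, 0 of the 33 genes were called by edgeR, DESeq2 or limma, beside 0.105% of all tested genes (0.0140% higher and 0.0909% lower). Of the 33, 2 passed an unadjusted p under 0.05, Mvk and Scd1, beside 6.43% of all tested genes. Mvk had a log2 difference of 0.21 ± 0.079 and Scd1 of -0.12 ± 0.057 in Zfp352/Zfp353-DKO less Zfp352-KO cells, with edgeR adjusted p = 0.637 and 0.746. All 33 intervals lay within 0.5 log2 units of 0, from -0.39, for Tm7sf2, to 0.37, for Mvk. CPM ranges did not overlap for 3 genes, Sqle and Fads2 being lower and Mvk higher, beside 5.60% lower and 5.49% higher of all tested genes. The difference was below 0 for 23 of the 33 genes, beside 49.4% of all tested genes. The medians were -0.025 for the sterol branch, -0.018 for the regulators and -0.056 for the fatty acid branch, beside 0.0015 for all tested genes. Over the 19 alternatives they ran from -0.043 to 0.0030 (without Zfp352-KO library 3), from -0.030 to 0.0054 (without Zfp352/Zfp353-DKO library 2) and from -0.10 (without Zfp352/Zfp353-DKO library 3) to -0.029 (without Zfp352/Zfp353-DKO library 1).

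The branches also differed from library to library. The median deviation of the 18 sterol genes from their 9-library mean, in log2 CPM, was 0.13, 0.060 and 0.016 in Parental libraries, -0.064, -0.014 and 0.035 for Zfp352-KO and -0.023, -0.089 and -0.030 for Zfp352/Zfp353-DKO. All 3 Parental libraries lay above all 3 Zfp352/Zfp353-DKO libraries, while the third Zfp352-KO library lay above the third Parental library. For the 9 fatty acid genes the medians were 0.035, -0.030 and 0.042, then 0.041, 0.024 and 0.0063, then -0.068, -0.048 and 0.026, with no genotype apart from the others. The third Zfp352/Zfp353-DKO library was the one of its group whose fatty acid genes sat above the mean.

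**Figure D4:**
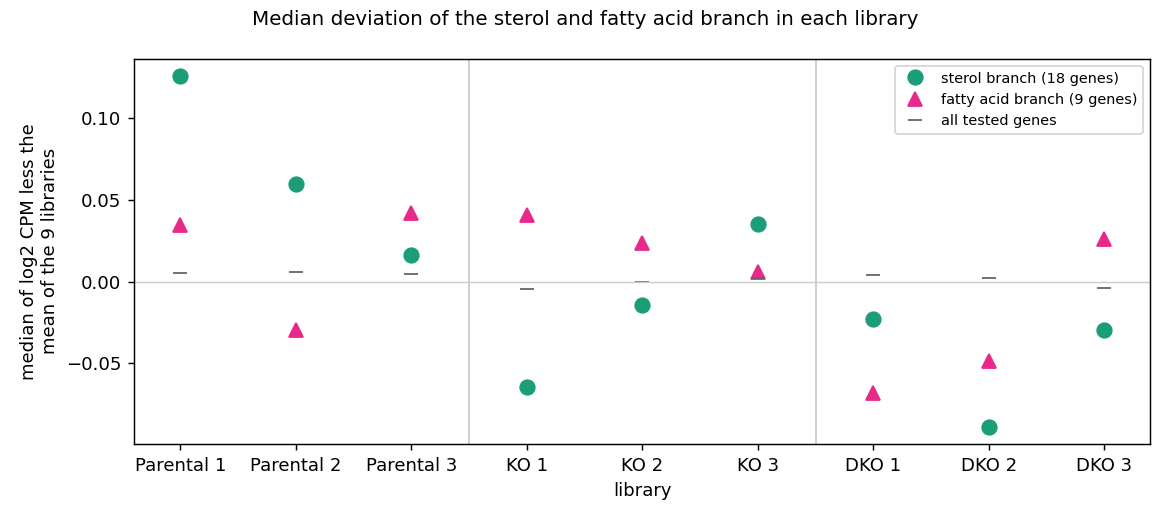
Median over the sterol branch (circles) and the fatty acid branch (triangles) of each gene's log2 CPM less its mean over 9 libraries, for every library; dashes give all tested genes. The sterol median is highest in Parental library 1 (0.13) and lowest in Zfp352/Zfp353-DKO library 2 (-0.089), and the Parental and Zfp352/Zfp353-DKO libraries do not overlap for the sterol branch, while all other pairs of groups overlap for the sterol branch and all pairs for the fatty acid branch.

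Transcript length varied with library as well, and the branches differ in length. Across the 14300 tested genes, Spearman's rho between length and a gene's deviation in a library was -0.31, -0.40 and -0.081 in Parental libraries, 0.39, 0.19 and -0.066 for Zfp352-KO and -0.13, -0.022 and 0.36 for Zfp352/Zfp353-DKO. Genes are not independent replicates, so these values describe the libraries. The median length was 2234 bases in the sterol branch, 3567 among the regulators and 4837 in the fatty acid branch, beside 2803 over all tested genes.

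With this trend removed in each library, 4 of the 33 genes were called lower in Zfp352-KO cells (Fdps, Fdft1, Lss and Scd2), beside 3.20% of all tested genes lower and 5.32% in either direction. In Zfp352/Zfp353-DKO cells 7 were called lower (Fdps, Fdft1, Lss, Srebf1, Fasn, Scd1 and Scd2), beside 5.45% lower and 8.61% in either direction. The median of the sterol branch became -0.050 for Zfp352-KO and -0.090 for Zfp352/Zfp353-DKO, and that of the fatty acid branch became -0.051 and -0.099. The branch medians thus lay close together after this correction, and the difference between the branches was not tested. Fdps, at 1248 bases one of the shorter transcripts, had -0.19 ± 0.043 and -0.27 ± 0.043, and Fasn, at 9938 bases the longest of the 33, moved from 0.0061 to -0.13 ± 0.035 in Zfp352/Zfp353-DKO cells (edgeR adjusted p = 0.0273).

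**Figure D5:**
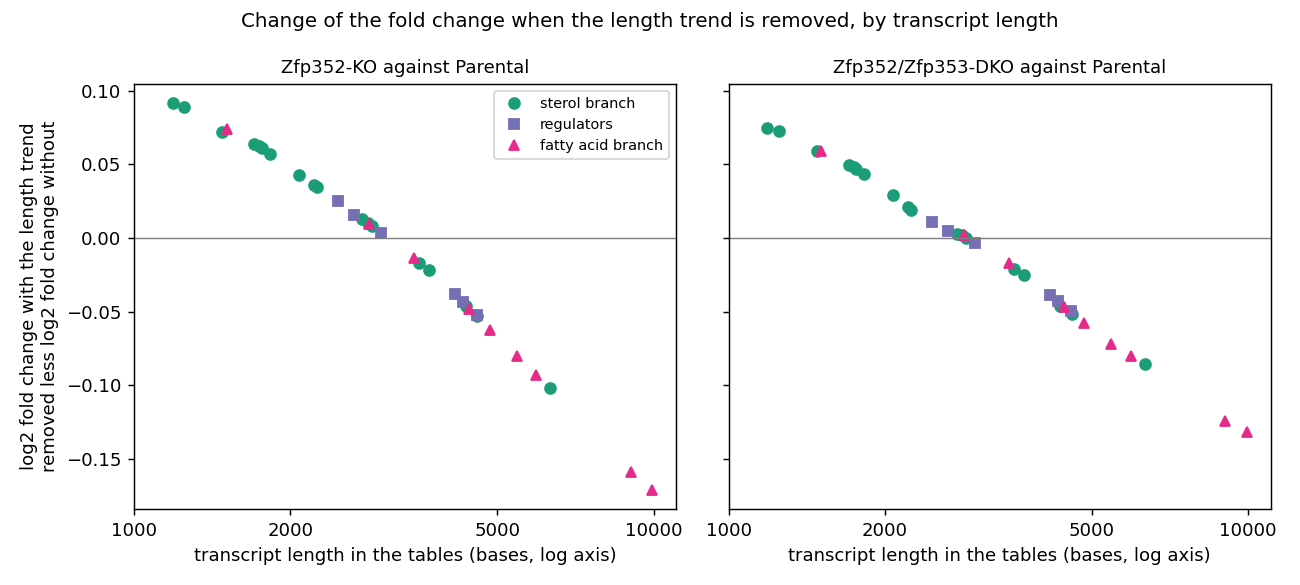
Change in each gene's log2 fold change on removing the length trend, against transcript length in bases (log axis), for Zfp352-KO (left) and Zfp352/Zfp353-DKO (right) against Parental. Short sterol branch transcripts move up by as much as 0.09 and the longest fatty acid transcripts move down by more than 0.1, so the correction brings the branch medians together.

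Genes around the route, taken as related lists, were compared in the same fit. Of the 104 tested genes in 6 such lists, 5 (4.81%) were called in Zfp352-KO cells and 6 (5.77%) for Zfp352/Zfp353-DKO, each against Parental, beside 7.06% and 8.47% of all tested genes. The related genes as a whole were thus called no more often than the background, and the counts of single lists, of 0 to 2 calls each, are not results about the lists. The calls are described as those of single genes. Of 10 genes of isoprenoid side branches, which draw on the product of Fdps, 1 was called in Zfp352-KO cells. This was Coq2, the prenyltransferase of ubiquinone synthesis, at 33.6, 32.8 and 33.2 TPM in Parental and 28.1, 30.5 and 28.6 in Zfp352-KO cells (log2 fold change -0.24 ± 0.066, edgeR adjusted p = 0.0368). In Zfp352/Zfp353-DKO cells 0 of 10 were called by edgeR, DESeq2 or limma, with 1 at an unadjusted p under 0.05, beside 24.5% of all tested genes. Of 18 genes of SREBP processing and sterol transport, 1 fell in Zfp352-KO cells. The Zfp352/Zfp353-DKO comparison had 1 that fell and 1 that rose. The gene that rose was Lipa, the lysosomal acid lipase that frees cholesterol from lipoprotein esters, at 5.87, 5.55 and 5.15 TPM in Parental and 7.44, 6.76 and 7.76 in Zfp352/Zfp353-DKO cells (log2 fold change 0.36 ± 0.11, edgeR adjusted p = 0.0439).

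Of 8 genes of the LXR receptors and their efflux targets, 1 rose in each comparison. Abca1, a cholesterol exporter, rose in Zfp352-KO cells, from 2.27, 2.22 and 2.67 TPM in Parental to 3.74, 2.98 and 3.01 (0.39 ± 0.10, edgeR adjusted p = 0.0271). The Zfp352/Zfp353-DKO log2 fold change of Abca1 was 0.20 ± 0.10 (edgeR adjusted p = 0.242). Abcg1, a second exporter, rose in Zfp352/Zfp353-DKO cells (0.26 ± 0.077, edgeR adjusted p = 0.0422) and had 0.23 ± 0.077 in Zfp352-KO cells (edgeR adjusted p = 0.0803). The transcripts of Abca1 and Abcg1 are long (10260 and 5818 bases), and both calls were lost with the length trend removed.

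Of 20 other tested genes of fatty acid synthesis, elongation and desaturation, 1 rose and 1 fell in Zfp352-KO cells. The Zfp352/Zfp353-DKO comparison had 1 that rose. Acss1, the mitochondrial acetyl-CoA synthetase, rose in both, from 16.9, 17.2 and 18.5 TPM in Parental to 21.0, 22.1 and 20.3 for Zfp352-KO and 21.9, 20.4 and 21.4 in Zfp352/Zfp353-DKO cells (0.23 ± 0.059 and 0.24 ± 0.059, edgeR adjusted p = 0.0296 and 0.0172). Slc25a1, the citrate exporter of mitochondria, fell in Zfp352-KO cells (-0.20 ± 0.054, edgeR adjusted p = 0.0297). Of 27 genes of fatty acid activation and glycerolipid synthesis, 0 were called in Zfp352-KO cells (5 at an unadjusted p under 0.05, beside 23.7% of all tested genes, and 0 by DESeq2 or limma). In Zfp352/Zfp353-DKO cells Lpin1, a phosphatidate phosphatase, rose (0.29 ± 0.078, edgeR adjusted p = 0.0293) and Acsl3, an acyl-CoA synthetase, fell (-0.19 ± 0.059, edgeR adjusted p = 0.047). Of 21 tested genes of fatty acid oxidation, 0 were called by edgeR in either comparison, with 2 and 3 at an unadjusted p under 0.05, beside 23.7% and 24.5% of all tested genes. DESeq2 called 0 of them in both comparisons, and limma called 1 higher in Zfp352-KO cells and 0 for Zfp352/Zfp353-DKO.

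These 11 calls among the related lists all lost significance without Parental library 1, with edgeR adjusted p-values from 0.0683 to 0.216. Without Parental library 2, 9 of the 11 were lost, without Zfp352/Zfp353-DKO library 2 7 were lost, and without any other single library 2 to 5 were lost. Calls over all tested genes fell too, from 1010 and 1211 in the 2 comparisons with Parental to 210 and 449 without Parental library 1. Without Parental library 2 they fell to 382 and 649. Such losses were thus not particular to the related lists. Fdps kept both of its calls whichever library was left out. Between the edited genotypes, 0 genes of these 6 lists were called by edgeR, DESeq2 or limma.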

How the data were processed

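RNA was measured in 9 libraries, 3 for each genotype. Per the labels' protocols, stranded mRNA libraries gave single-end reads with a length of 75 bases. The submitters' processing notes name RSEM 1.3.3, STAR 2.7.8a and Trim Galore 0.6.6, and the build mm10. Annotation release and strand setting are not given in the sources used for this account. Per the file headers, the authors deposited expected counts (RSEM estimates, 9.27% of them not whole) and TPM. The deposited transcript lengths, in bases, served for the length trend.

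Rounded expected counts went into edgeR 4.0.16 under R 4.3.3 (filterByExpr, TMM factors of 0.992 to 1.01, glmQLFit, glmQLFTest, two-sided). All 9 libraries shared 1 model of genotype with 6 residual degrees of freedom. Calls were made at a Benjamini-Hochberg adjusted p under 0.05 over 14300 genes, and the model was tested on simulated data. Of genes simulated with a 1.2-fold change, it recovered 46.9% for Zfp352-KO and 42.9% for Zfp352/Zfp353-DKO against Parental. Between the edited genotypes it recovered 28%. At a 2-fold change the shares were 94%, 85.4% and 90%. Differences near 1.2-fold can therefore go uncalled. The simulation changed fewer genes than were called against Parental in these data, and drew them from all tested genes. In the Zfp352-KO comparison the median standard error was 0.083 over all tested genes and 0.060 over the 33. The shares are thus not those of the 33 genes. Standard errors were derived from the test's F statistic, and edgeR's common coefficient of variation among libraries of a group was 4.95%. The 19 alternatives comprised other scalings, DESeq2 1.42.0, limma 3.58.1 on log2(TPM + 1) and log2(TPM + 0.1), no count filter, only the 6 libraries compared, a replicate block, removal of the length trend (loess, span 0.3, of log2 CPM deviation on log2 length in each library), both together, and leaving out each library. Counts of replicate libraries differed by more than sampling noise (chi-square per degree of freedom 2.44 to 6.68), so none was counted as a duplicate.

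The 33 genes and the related and marker lists were chosen with earlier results of these data known. The text names all 33, each related gene that was called (at most 4 per list and comparison), except 1 that is not reported here, and the deleted gene, and gives every library's value for members called, the paralog pairs Srebf1 and Srebf2, Insig1 and Insig2, and Scd1 and Scd2, and the 3 highest and 3 lowest genes. Other genes given by library were chosen after their values were seen.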

Additional observations from a re-analysis of the deposited data

How the results depend on the processing

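The number of the 33 genes called in Zfp352-KO against Parental was 2. It was 1 with limma on log2(TPM + 1) or log2(TPM + 0.1), 1 with the replicate block, 4 with the length trend removed and 4 with the replicate block and the length trend removed. Leaving out 1 library gave 1 to 4. It was 1 without Parental library 1 or 2, Zfp352-KO library 1 or 2, or Zfp352/Zfp353-DKO library 2, and 4 without Zfp352/Zfp353-DKO library 3. The share of all tested genes called moved as well. Leaving out these libraries, in the order given, made it 1.45%, 2.64%, 1.91%, 2.55%, 5.0% and 10.7%, beside 7.06% in the main fit. That share was 2.51% with limma on log2(TPM + 1), 3.98% with the replicate block and 5.32% with the length trend removed. In Zfp352/Zfp353-DKO against Parental the number of the 33 genes called was 3. It was 1 with either limma setting, 7 with the length trend removed and 7 with the replicate block and the length trend removed. Leaving out 1 library gave 1 to 3, with 1 without Parental library 1 or Zfp352/Zfp353-DKO library 2. The share of all tested genes called was 3.11% and 4.45% without these 2 libraries, beside 8.47% in the main fit. With limma on log2(TPM + 1) that share was 4.04%, and with the length trend removed 8.61%. Between the edited genotypes the number of the 33 genes called was 0 under all 19 alternatives. Fasn in Zfp352/Zfp353-DKO against Parental reversed from 0.0061 to -0.13 with the length trend removed (edgeR adjusted p = 0.0273) and to -0.13 with the replicate block as well (edgeR adjusted p = 0.0388); the correction removes a trend by length, and Fasn is the longest of the 33 transcripts.

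The labels state no pairing by replicate number. Deviations of same-numbered libraries correlated from -0.077 to 0.11, so the numbers were not taken to pair the libraries. With the replicate block, Fdft1 lost its calls (edgeR adjusted p = 0.0753 and 0.059), 2 of the 33 genes were called in Zfp352/Zfp353-DKO against Parental, and 569 and 867 of all tested genes were called against Parental, beside 1010 and 1211 without it.

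Of 1881 values of the 33 genes under alternatives, 1840 stayed on their side of the threshold, 21 lost a call, 18 gained one and 2 reversed. Most of these values belonged to genes not called in the main fit, so the total says little about the 5 calls. Of the 19 alternatives, Fdps kept each of its 2 calls in 19. Fdft1 kept its calls in 11 for Zfp352-KO and 12 for Zfp352/Zfp353-DKO, and Scd2 kept its call in 13. Among values not called under either setting, 136 changed sign. Of the 11 calls in the related lists, limma lost 10, DESeq2 6 and the replicate block 8. Removal of the length trend lost 5, at edgeR adjusted p-values from 0.0793 to 0.147. These were Coq2, Abca1 and Slc25a1 in Zfp352-KO and Abcg1 and Lpin1 in Zfp352/Zfp353-DKO cells. With the replicate block as well, 7 were lost. Depth limits Tm7sf2 most, which had as few as 50 counts in a library and the widest standard errors of the 33.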
